A study of Mus musculus with 6 samples.

Results

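The chemokines and their receptors were followed in whole pancreas of mice in which the transcription factor Prox1 was overexpressed. The genes were chosen by symbol: every measured gene named Ccl, Cxcl, Ccr or Cxcr with a number, together with Cx3cl1, Cx3cr1, Xcl1, Xcr1 and Ackr3. This gave 50 of the 18194 genes that the array's annotation names from probe sets with a single symbol, measured by 78 of 34958 such probe sets. Each gene was represented by its brightest probe set, judged by the mean of the 6 arrays. Of the 50 genes, 33 encode ligands and 17 encode receptors. They were divided by their usual role into 12 homeostatic, 23 inflammatory and 15 mixed or other genes.

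The Prox1-OE group (n = 3 arrays) carried Jojo-Prox1, a Prox1 overexpression transgene, together with Ngn3-cre, and the control group (n = 3 arrays) carried Ngn3-cre without Jojo-Prox1. Both groups carry the Cre driver and share the NMRI strain, the age of postnatal day 15 and the tissue, the whole pancreas. Ngn3-cre acts in endocrine progenitors and their descendants, a minority of the cells of a whole pancreas. Total RNA was measured on Affymetrix 3' expression arrays, 1 array per sample, with the stated aim of finding genes and pathways that respond to Prox1 overexpression in beta cells.

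Chemokines are small secreted proteins that guide the movement of cells, above all leukocytes, through receptors of the G-protein-coupled class. Homeostatic chemokines such as Cxcl12 and Cxcl13 are made constantly, largely by stromal cells, and place lymphocytes and other cells in their niches. Inflammatory chemokines such as Ccl2 and Cxcl10 are made by macrophages, stroma and epithelium on stimulation and draw in monocytes, neutrophils, eosinophils or effector T cells.

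The values were log2 probe set signals, so a difference of 1 is a doubling, and signals of different probe sets cannot be set against each other as RNA amounts. The arrays had medians between 4.38 and 4.42, and array number and background signal, not a count of reads, limit the precision. The labels do not state that replicates were taken from different animals, so each p-value reflects the spread of these 6 samples alone, which may be technical. In a bulk sample, fewer cells of a type and less RNA per cell cannot be told apart. The probe set for Prox1 itself read 5.30, 4.98 and 5.31 in Prox1-OE pancreas, against 5.61, 4.90 and 4.90 in control pancreas, a log2 difference of 0.06 ± 0.20 (SE) with a limma adjusted p of 0.971. A 3' probe set can lie outside the transcript of a transgene, which no label settles here, so its value does not check the labels. In a principal component analysis of all genes, Prox1-OE replicate 1 stood apart on the first component (34.6% of variance) and control replicate 3 on the second (22.9%).

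Several CC chemokine genes lie as direct neighbours on mouse chromosome 11, in a pair of blocks. The promoters of 4 of them are shown, because each of these genes read higher on all 3 Prox1-OE arrays than on any control array. Ccl11, of which no promoter is shown, met the same criterion. Each line runs 5' to 3' along the gene's own strand, over 300 bases that span the transcription start and lie mostly before it, as given by RefSeq on GRCm38.p6. Capitals mark the motif matches listed after the sequences.
Ccl12, chr11:82101595-82101894, plus strand: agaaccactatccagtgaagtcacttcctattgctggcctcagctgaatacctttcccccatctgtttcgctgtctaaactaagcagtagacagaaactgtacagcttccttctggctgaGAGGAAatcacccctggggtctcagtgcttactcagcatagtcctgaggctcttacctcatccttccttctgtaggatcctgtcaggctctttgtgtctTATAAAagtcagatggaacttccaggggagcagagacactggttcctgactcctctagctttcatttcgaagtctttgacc
Ccl8, chr11:82114935-82115234, plus strand: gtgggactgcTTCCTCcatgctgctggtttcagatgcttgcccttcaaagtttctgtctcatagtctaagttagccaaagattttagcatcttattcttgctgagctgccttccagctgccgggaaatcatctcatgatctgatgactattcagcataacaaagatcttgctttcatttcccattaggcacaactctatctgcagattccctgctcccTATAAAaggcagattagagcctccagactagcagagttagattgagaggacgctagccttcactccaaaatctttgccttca
Ccl9, chr11:83578587-83578886, minus strand: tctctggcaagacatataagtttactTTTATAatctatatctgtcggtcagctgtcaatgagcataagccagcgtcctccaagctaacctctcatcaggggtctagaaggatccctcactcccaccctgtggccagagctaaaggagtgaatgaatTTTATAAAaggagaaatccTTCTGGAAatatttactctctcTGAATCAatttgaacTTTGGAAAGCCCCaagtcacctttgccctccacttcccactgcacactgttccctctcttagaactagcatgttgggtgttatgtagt
Ccl6, chr11:83593038-83593337, minus strand: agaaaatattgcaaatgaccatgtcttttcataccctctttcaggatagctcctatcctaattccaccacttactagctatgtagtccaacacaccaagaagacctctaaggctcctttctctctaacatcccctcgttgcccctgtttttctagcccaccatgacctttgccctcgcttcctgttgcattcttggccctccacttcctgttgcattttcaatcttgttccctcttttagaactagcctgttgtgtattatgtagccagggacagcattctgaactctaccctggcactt

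A set of 6 motifs was searched on both strands: TATAAA for a TATA box, GAGGAA for the myeloid factor PU.1, TTNNGNAA for C/EBP, TGANTCA for AP-1, TTCNNNGAA for STAT and the NF-kB consensus. The Ccl12 and Ccl8 windows each held TATAAA, beginning 31 and 32 bases before the start, and 1 match to the PU.1 letters. The Ccl9 window held 3 TATA matches, of which the pair at 94 and 92 bases before the start overlap, as well as 2 C/EBP matches, 1 AP-1 match and 1 NF-kB match, the last overlapping a C/EBP match. None of the 6 sets of letters occurred in the Ccl6 window. The best local alignment of the neighbours Ccl6 and Ccl9 covered 74 bases with 59 identical, 79.7%. That of the neighbours Ccl8 and Ccl12 covered 36 with 28 identical, 77.8%. Any pair yields some best stretch: Ccl6 and Ccl8, of different blocks, gave 29 with 21 identical, 72.4%. The other pairs across the blocks gave 9 to 13 aligned bases. Whether the stretch of Ccl8 and Ccl12 is longer than that of unrelated promoters was not tested. RefSeq promoter entries were matched for 37 of the 50 genes, with 41 windows in all. Of these windows, 12 held the TATA letters, 14 PU.1, 20 C/EBP, 7 AP-1, 3 STAT and 10 NF-kB. Among all 32851 windows of the same length, the shares were 13.6% for TATA, 28.3% for PU.1, 40.7% for C/EBP, 7.81% for AP-1, 8.3% for STAT and 6.93% for NF-kB. A match is a run of letters and not evidence of binding.

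None of the 50 genes passed the test between Prox1-OE and control pancreas. The lowest adjusted p among them was 0.550, for Ccl11, with limma on all 18194 genes and Benjamini-Hochberg adjustment at 0.05. Across all genes 5 passed, which is 0.0275%. At an unadjusted p under 0.05, 10 members were higher in Prox1-OE pancreas, against 2.94% of all genes, and 4 were lower, against 3.7% of all genes. The 3 Prox1-OE arrays were all above the 3 control arrays for 9 members, 18% of them, where 5.05% of all genes did so. They were all below for 4 members, where 7.02% of all genes did so. In total 33 members, 66%, had a higher mean in Prox1-OE pancreas and 17 a lower one, where 46.2% of all genes were higher. The median log2 difference was 0.08, against -0.01 over all genes. The share of 46.2% is the background for each later count of genes with a higher mean.

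The size of these counts depended on single arrays. Without Prox1-OE replicate 1, 4 members were higher at an unadjusted p under 0.05, with 2.05% of all genes, and 3 were lower, with 2.85%. In that setting 11 lay wholly above the controls, with 8.71% of all genes. Without Prox1-OE replicate 2, 13 were higher at that p, with 4.36% of all genes, and 3 lower, with 2.87%. Without control replicate 2, 6 were higher, with 2.4%, and 3 lower, with 3.57%. Without Prox1-OE replicate 3, control replicate 1 or control replicate 3, 1 member was lower, with 3.9%, 3.55% and 3.5% of all genes, and 7, 7 and 9 were higher, with 3.07%, 2.91% and 2.92%. The highest of the 6 values fell on Prox1-OE replicate 1 for 19 members, on Prox1-OE replicate 2 for 4 and on Prox1-OE replicate 3 for 8, against 6, 5 and 8 on control replicates 1, 2 and 3. Most members gave a dim signal: only 10 of the 50, 9 ligands and 1 receptor, had a mean above the median gene.

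**Figure D1:**
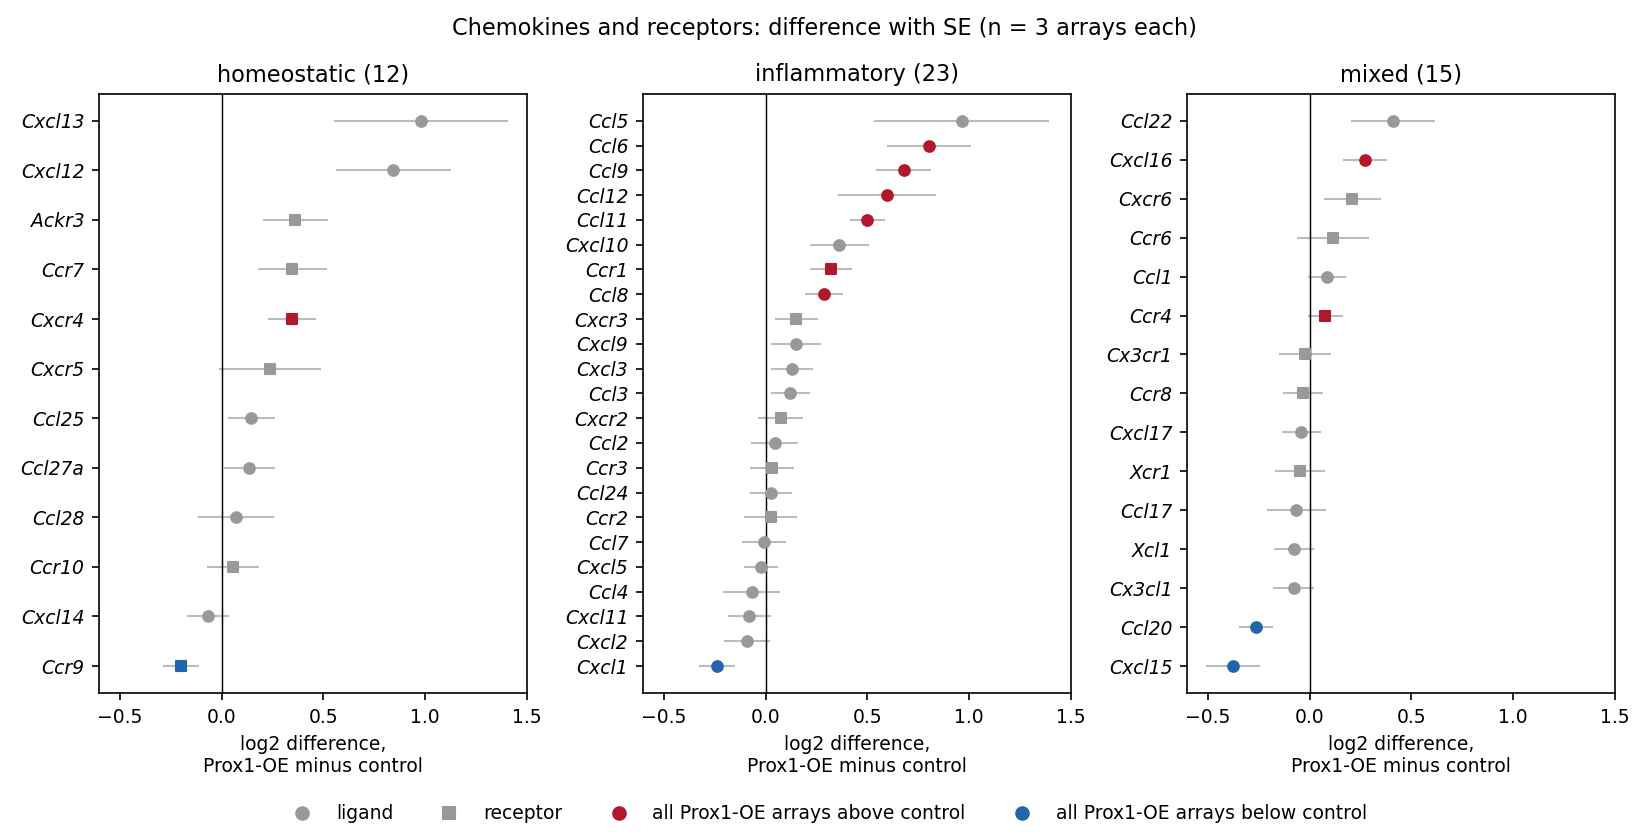
Difference between Prox1-OE and control pancreas for each of the 50 genes, on the log2 scale, with the standard error from limma as the bar (n = 3 arrays each). Circles are ligands and squares receptors, and red or blue marks the 9 genes for which all Prox1-OE arrays lay above and the 4 for which all lay below the control arrays.

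Among the 12 homeostatic genes measured, the ligands Cxcl12 and Cxcl13 had the largest differences, and 10 had a higher mean in Prox1-OE pancreas. The class does not hold the Ccr7 ligands Ccl19 and Ccl21, which no probe set with a single symbol measured. Probe sets with several symbols are described apart, near the end. None passed the test, and the median log2 difference was 0.19. In this class the groups were fully apart for 1 gene upwards (Cxcr4) and 1 downwards (Ccr9), against 5.05% and 7.02% of all genes. Cxcl12 retains blood-forming cells and lymphocytes in stromal niches and was among the 10 members with a signal above that of the median gene. It read 9.29, 8.23 and 8.87 in Prox1-OE pancreas, against 8.42, 7.67 and 7.76 in control pancreas. Prox1-OE replicate 2 lay below control replicate 1, so the groups overlap. The log2 difference was 0.84 ± 0.28 (SE, adjusted p = 0.690), or 1.79-fold. It was 0.60 without Prox1-OE replicate 1 and 1.13 without Prox1-OE replicate 2. The other probe sets of Cxcl12 gave differences of 0.32 and -0.23, so the 3 did not agree in sign.

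Cxcr4, the signalling receptor of Cxcl12, read 3.54, 3.11 and 3.28 in Prox1-OE pancreas, against 2.99, 2.91 and 3.0 in control pancreas. All Prox1-OE arrays were above all control arrays, by 0.34 ± 0.12 on average (SE, adjusted p = 0.693), at a signal near the bottom of the array's range. Ackr3, the atypical receptor that takes up Cxcl12 and removes it, was the only receptor of the set brighter than the median gene. Its values were 8.22, 7.69 and 7.78 in Prox1-OE pancreas, against 7.33, 7.53 and 7.73 in control pancreas. Prox1-OE replicate 2 fell just under control replicate 3, and the difference was 0.36 ± 0.16 (SE, adjusted p = 0.753). Without Prox1-OE replicate 1 it was 0.20.

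Cxcl13, which stromal cells of B-cell follicles secrete to attract B cells, differed between the Prox1-OE arrays themselves. It read 6.5, 7.59 and 5.54 in Prox1-OE pancreas, against 5.47, 5.77 and 5.46 in control pancreas. Prox1-OE replicate 2 was the highest and Prox1-OE replicate 3 lay inside the control range. The difference of 0.98 ± 0.43 (SE, adjusted p = 0.753) was 0.45 without Prox1-OE replicate 2 and 1.48 without Prox1-OE replicate 3. A second Cxcl13 probe set read 6.49, 7.12 and 5.54 in Prox1-OE pancreas, against 5.04, 5.32 and 5.44 in control pancreas. There the groups did not overlap, although Prox1-OE replicate 3 was again next to the controls.

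Cxcr5, the Cxcl13 receptor of follicular B cells, was high on a different array. It read 4.26, 3.19 and 3.40 in Prox1-OE pancreas, against 3.36, 3.55 and 3.24 in control pancreas. The high value was Prox1-OE replicate 1, and Prox1-OE replicate 2, the array with the most Cxcl13, had the lowest Cxcr5 of all. The difference was 0.24 ± 0.25 (SE, adjusted p = 0.875) and was -0.09 without Prox1-OE replicate 1. Ccr7, which brings T cells and mature dendritic cells into lymph nodes, read 3.91, 3.22 and 3.70 in Prox1-OE pancreas, against 3.16, 3.29 and 3.36 in control pancreas. Prox1-OE replicate 2 again lay within the control range. Its difference of 0.35 ± 0.17 (SE, adjusted p = 0.763) was 0.20 without Prox1-OE replicate 1.

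**Figure D2:**
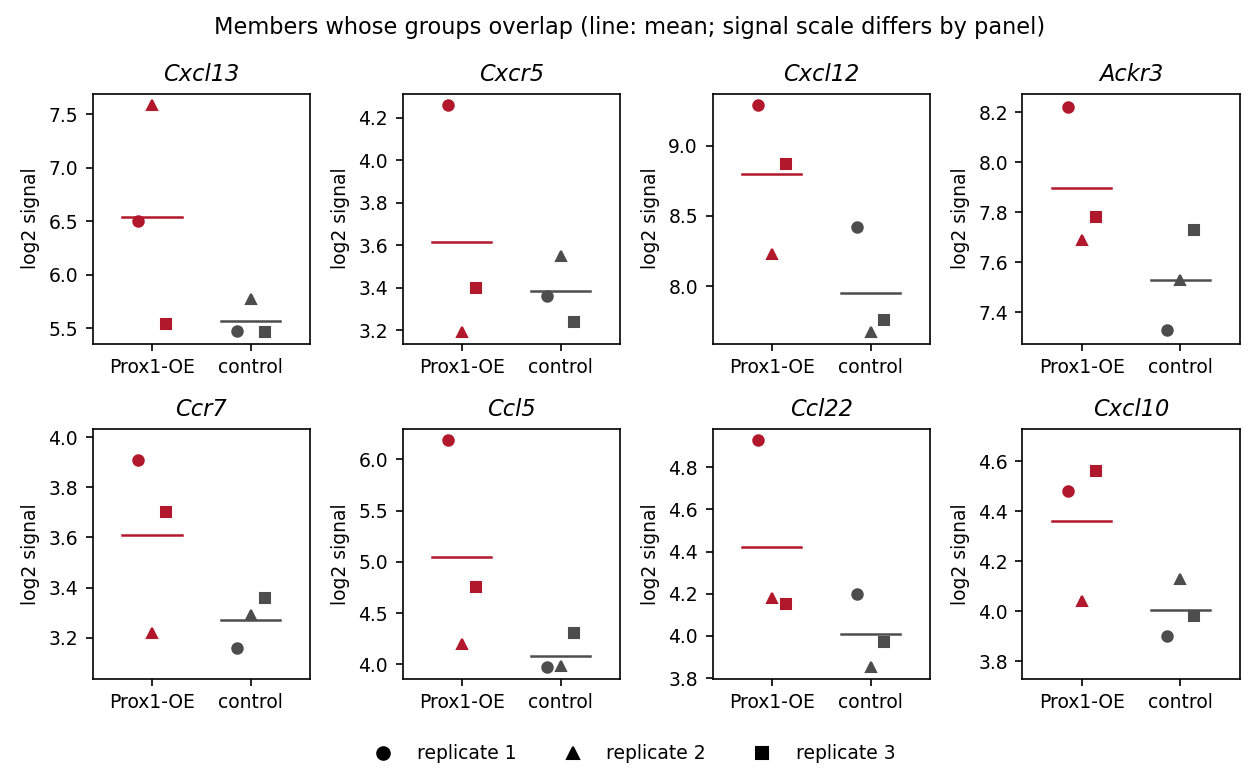
Log2 signal of 8 members on each array, for genes whose Prox1-OE and control arrays overlap; symbols give the replicate, horizontal lines the group means, and the scale differs by panel. Prox1-OE replicate 2 is highest for Cxcl13 and lowest of its group for Cxcr5, Cxcl12, Ackr3, Ccr7, Ccl5 and Cxcl10.

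The mucosal and skin homeostatic genes were flatter. Ccr9, the receptor of gut-homing T cells, read 3.45, 3.38 and 3.28 in Prox1-OE pancreas, against 3.57, 3.60 and 3.54 in control pancreas. All Prox1-OE arrays lay below the controls, by -0.20 ± 0.09 (SE, adjusted p = 0.748). Its 5 probe sets disagreed, and one of them read 4.89, 2.89 and 3.38 in Prox1-OE pancreas, against 3.15, 3.06 and 2.86 in control pancreas, high on Prox1-OE replicate 1 alone. Ccl25, the ligand of Ccr9, differed by 0.15 ± 0.12 and overlapped with the controls; without Prox1-OE replicate 3 it was 0.03. Ccl27a and Ccl28, ligands of Ccr10, differed by 0.14 ± 0.12 and 0.07 ± 0.18, and Ccr10 by 0.06 ± 0.13. Without control replicate 2, Ccl27a differed by 0.01. Cxcl14, a CXC chemokine of epithelia, differed by -0.07 ± 0.10 (all SE, adjusted p between 0.832 and 0.962 for these 5 genes).

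The inflammatory ligands held the members that were most cleanly apart. Of the 23 inflammatory genes, 17 had a higher mean in Prox1-OE pancreas, none passed the test, and the median log2 difference was 0.12. In this class 6 were wholly above the controls, where 5.05% of all genes were. Only 1 was wholly below, where 7.02% of all genes were. Ccl11, or eotaxin, attracts eosinophils through Ccr3. It read 6.79, 6.75 and 6.74 in Prox1-OE pancreas, against 6.33, 6.29 and 6.16 in control pancreas. The Prox1-OE arrays were nearly equal and all above the controls. The difference was 0.50 ± 0.09 (SE, adjusted p = 0.550), or 1.41-fold, and it stayed between 0.45 and 0.54 when single arrays were left out. Ccr3, the receptor of Ccl11 on eosinophils, differed by 0.03 ± 0.11 (SE, adjusted p = 0.974) at a dim signal.

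Ccl9 and Ccl6 are neighbouring genes for chemokines of rodents that myeloid cells make and that act through Ccr1. Ccl9 read 6.90, 6.72 and 6.61 in Prox1-OE pancreas, against 6.32, 6.04 and 5.85 in control pancreas. All Prox1-OE arrays were above the controls, by 0.68 ± 0.14 (SE, adjusted p = 0.657). Its second probe set differed by 0.56 in the same direction. Ccl6 read 8.22, 8.30 and 7.52 in Prox1-OE pancreas, against 7.38, 7.27 and 6.98 in control pancreas. The groups were apart, with Prox1-OE replicate 3 the lowest of its group. The difference was 0.80 ± 0.21 (SE, adjusted p = 0.690), or 1.75-fold, and 0.89 on the second probe set. Ccr1, a receptor of monocytes and neutrophils, read 4.59, 4.42 and 4.35 in Prox1-OE pancreas, against 4.25, 4.02 and 4.13 in control pancreas. Its groups were also apart, by 0.32 ± 0.10 (SE, adjusted p = 0.690), while its dimmer probe set differed by 0.05.

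Ccl12 and Ccl8 belong to the monocyte chemoattractant group. Ccl12, which acts through Ccr2, read 5.23, 4.97 and 5.48 in Prox1-OE pancreas, against 4.05, 4.94 and 4.90 in control pancreas. The groups did not overlap, but only narrowly, and control replicate 1 was far below the other controls. The difference of 0.60 ± 0.24 (SE, adjusted p = 0.739) was 0.31 without control replicate 1. Ccl8, which in mice acts through Ccr8, read 3.36, 3.42 and 3.54 in Prox1-OE pancreas, against 3.21, 3.19 and 3.06 in control pancreas. The groups were apart by 0.29 ± 0.09 (SE, adjusted p = 0.690), at a signal near the bottom of the array's range. The receptors Ccr2 and Ccr8 differed by 0.02 ± 0.13 and -0.03 ± 0.10 (SE), with groups that overlapped on the probe sets that stood for them. Another Ccr2 probe set read 3.94, 4.18 and 3.99 in Prox1-OE pancreas, against 3.73, 3.8 and 3.61 in control pancreas. There all Prox1-OE arrays were above the controls, by 0.32 ± 0.10 (SE, limma adjusted p = 0.770 over all probe sets).

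**Figure D3:**
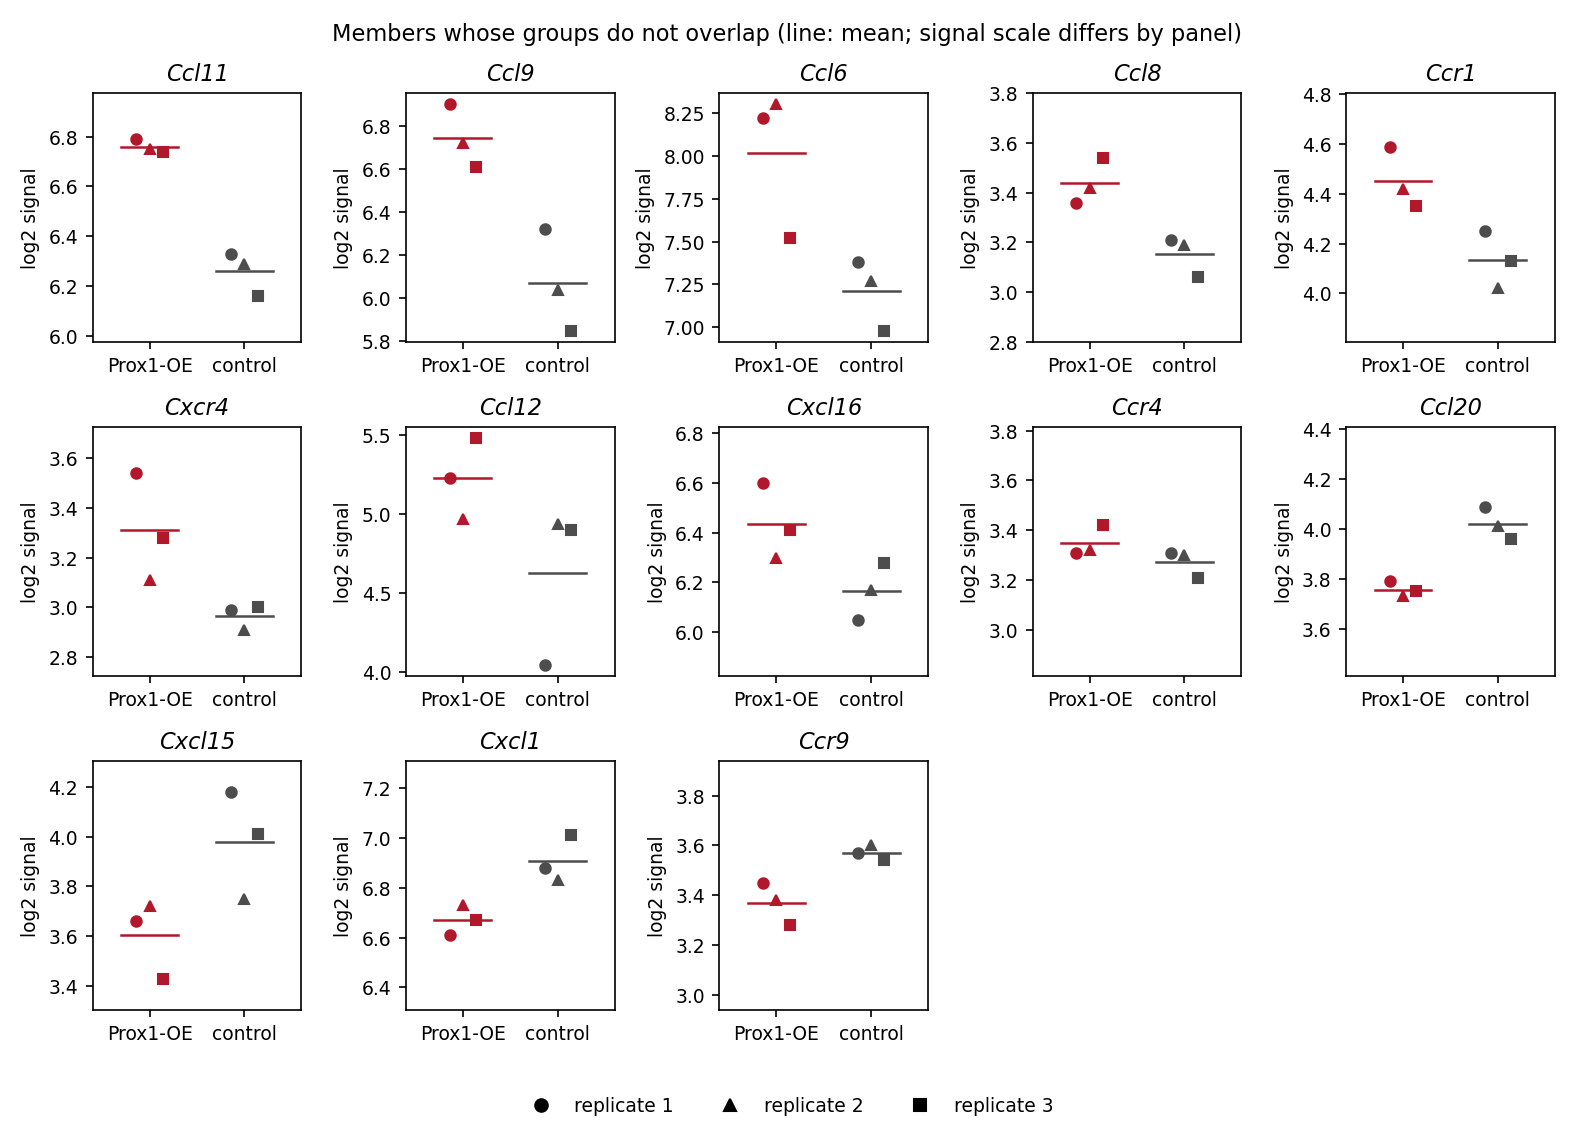
Log2 signal on each array for the 13 members whose Prox1-OE and control arrays do not overlap, with group means as lines and a scale that differs by panel. For 9 genes all Prox1-OE arrays lie above the controls and for Ccr9, Cxcl1, Ccl20 and Cxcl15 all lie below, on the probe set that stands for each gene. Ccr4 is apart by less than 0.01.

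The neutrophil and interferon-linked ligands gave a different picture. Cxcl1, which attracts neutrophils through Cxcr2, read 6.61, 6.73 and 6.67 in Prox1-OE pancreas, against 6.88, 6.83 and 7.01 in control pancreas. All Prox1-OE arrays were below the controls, by -0.24 ± 0.09 (SE, adjusted p = 0.721). The other Cxcl1 probe sets gave -0.10 and 0.28, so the direction depended on the probe set. The last read 4.15, 4.16 and 4.23 in Prox1-OE pancreas, against 3.93, 3.72 and 4.06 in control pancreas, so there all Prox1-OE arrays were above the controls. It is the probe set taken for Cxcl1 when specific probe sets were preferred. Cxcl10, made in response to interferons, read 4.48, 4.04 and 4.56 in Prox1-OE pancreas, against 3.90, 4.13 and 3.98 in control pancreas. Prox1-OE replicate 2 lay inside the control range, and the difference was 0.36 ± 0.14 (SE, adjusted p = 0.739). Cxcr3, the receptor of Cxcl9, Cxcl10 and Cxcl11 on effector T cells, differed by 0.15 ± 0.10, and Cxcr2 by 0.07 ± 0.11 (SE, adjusted p = 0.806 and 0.925). Without Prox1-OE replicate 1 they differed by 0.07 and 0.02, and without Prox1-OE replicate 3 by 0.23 and 0.18.

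Ccl5, which attracts T cells and monocytes, was high on one array. It read 6.19, 4.20 and 4.76 in Prox1-OE pancreas, against 3.97, 3.98 and 4.31 in control pancreas. Prox1-OE replicate 1 was far above the rest and Prox1-OE replicate 2 was under control replicate 3. The difference of 0.96 ± 0.43 (SE, adjusted p = 0.753) was 0.39 without Prox1-OE replicate 1 and 1.39 without Prox1-OE replicate 2. The other inflammatory ligands, of which Ccl2, the chief monocyte attractant, differed by 0.04 ± 0.11 (SE), lay between -0.09 and 0.15, and the groups of all of them overlapped. Ccl5, Cxcl10, Ccl2, Ccl3, Ccl4 and Ccl7 were named after their values were seen.

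The chromosome 11 genes were not all alike. In the order Ccl2, Ccl7, Ccl11, Ccl12, Ccl8 and Ccl1, with no other protein-coding gene between them, Ccl11, Ccl12 and Ccl8 were wholly above the controls. Ccl2, Ccl7 and Ccl1 on their flanks differed by 0.04 ± 0.11, -0.01 ± 0.11 and 0.09 ± 0.09 (SE) and overlapped. After 25 other protein-coding genes the next block follows in the order Ccl5, Ccl9, Ccl6, Ccl3 and Ccl4. There Ccl9 and Ccl6 were wholly above the controls. Ccl3 and Ccl4, ligands made by activated macrophages and T cells, differed by 0.12 ± 0.10 and -0.07 ± 0.14 (SE) and overlapped. Members of a block resemble each other in sequence, and whether probes of one gene also bind another's RNA was not tested.

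**Figure D4:**
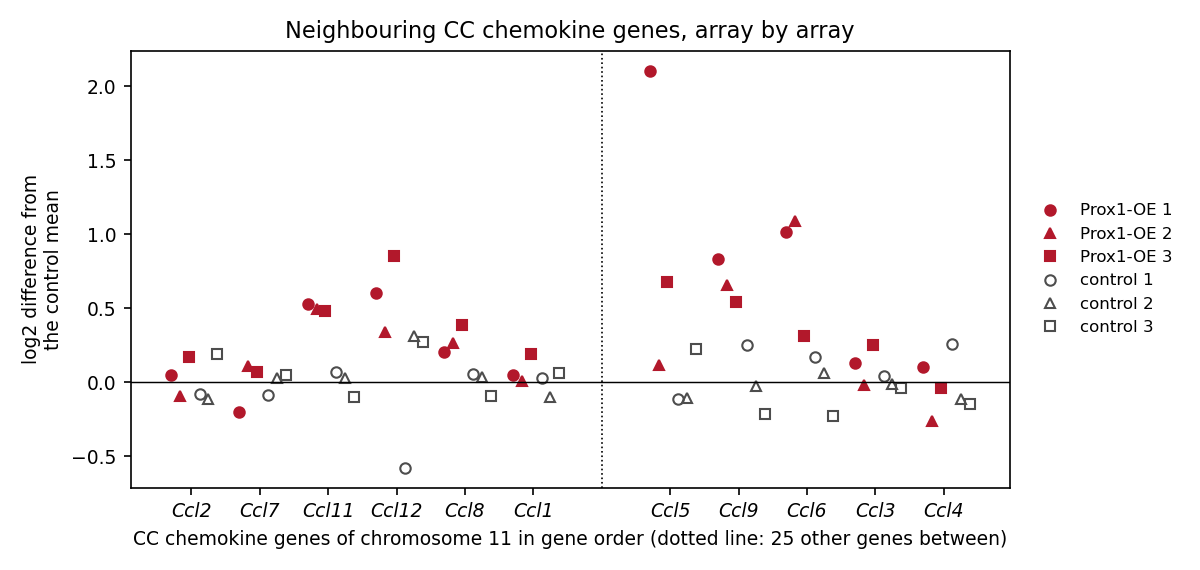
Log2 difference of each array from the control mean for the 11 CC chemokine genes of both blocks on chromosome 11, in gene order and not to scale; the dotted line stands for 25 other genes. Filled red symbols are Prox1-OE arrays and open grey ones control arrays, and Ccl11, Ccl12, Ccl8, Ccl9 and Ccl6 have all red symbols above all grey ones.

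The mixed genes, which serve both resident and recruited cells, showed no common direction. Of 15, 6 had a higher and 9 a lower mean in Prox1-OE pancreas, none passed the test and the median was -0.03. Cxcl16, the membrane-bound ligand of Cxcr6, read 6.60, 6.30 and 6.41 in Prox1-OE pancreas, against 6.05, 6.17 and 6.28 in control pancreas. The groups were narrowly apart, by 0.27 ± 0.11 (SE, adjusted p = 0.739). Cxcr6, found on memory T and NKT cells, differed by 0.21 ± 0.14 (SE, adjusted p = 0.800) and overlapped; without Prox1-OE replicate 1 it was 0.08.

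Ccl20, the ligand of Ccr6, read 3.79, 3.73 and 3.75 in Prox1-OE pancreas, against 4.09, 4.01 and 3.96 in control pancreas. All Prox1-OE arrays lay below, by -0.26 ± 0.08 (SE, adjusted p = 0.690). Ccr6, a receptor of B cells and Th17 cells, differed by 0.11 ± 0.18 (SE) and by -0.04 without Prox1-OE replicate 1. Cxcl15, a neutrophil attractant known from the lung epithelium of mice, read 3.66, 3.72 and 3.43 in Prox1-OE pancreas, against 4.18, 3.75 and 4.01 in control pancreas. It too lay below on all Prox1-OE arrays, by -0.38 ± 0.13 (SE, adjusted p = 0.702), at a dim signal. The second, dimmer Cxcl15 probe set differed by -0.03 and its groups overlapped.

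Ccl22, which dendritic cells make to attract regulatory T cells through Ccr4, read 4.93, 4.18 and 4.15 in Prox1-OE pancreas, against 4.20, 3.85 and 3.97 in control pancreas. Prox1-OE replicate 1 was the high value, and the difference of 0.41 ± 0.21 (SE, adjusted p = 0.766) was 0.16 without it. Ccr4 differed by 0.08 ± 0.08 (SE, adjusted p = 0.882), with groups that were apart by less than 0.01. Ccl1, the T-cell-derived ligand of Ccr8, differed by 0.09 ± 0.09, and Xcr1, the receptor of cross-presenting dendritic cells, by -0.05 ± 0.12 (SE). The remaining mixed genes lay between -0.08 and -0.02.

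Of the 18 members with more than 1 probe set, 7 had all probe sets higher in Prox1-OE pancreas, 4 had all lower and 7 had probe sets of both signs. Ccl6, Ccl9, Cxcl13 and Cxcl16 were among those with both probe sets higher, while Cxcl12, Cxcl1 and Ccr9 were mixed. For Cxcl16 the second probe set differed by 0.46 ± 0.17 (SE).

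The classes differed in how they followed single arrays. As the mean log2 difference of its genes from the control mean, the homeostatic ligand class stood at 0.45, 0.39 and 0.22 on Prox1-OE replicates 1, 2 and 3, against 0.06, -0.12 and 0.06 on the controls. The homeostatic receptors stood at 0.43, -0.01 and 0.15 in Prox1-OE pancreas, against -0.09, 0.04 and 0.06 in control pancreas. The ligand mean was above the controls on all Prox1-OE arrays and the receptor mean on Prox1-OE replicates 1 and 3. Cxcl12 and Cxcl13 had the largest differences of the 6 ligands, none of the 6 was wholly above the controls on its own, and Cxcl14 had a lower mean in Prox1-OE pancreas. The inflammatory ligands stood at 0.32, 0.14 and 0.23 in Prox1-OE pancreas, against -0.04, 0.02 and 0.02 in control pancreas. The mixed receptors stood at 0.21, -0.10 and 0.04 in Prox1-OE pancreas, against -0.06, 0.08 and -0.02 in control pancreas.

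Marker lists of leukocytes also differed between the Prox1-OE arrays. All 5 pan-leukocyte markers had a higher mean in Prox1-OE pancreas, and 4 were wholly above, where 5.05% of all genes were. Their mean stood at 2.62, 0.35 and 1.23 in Prox1-OE pancreas, against 0.11, 0.01 and -0.12 in control pancreas. Of 10 B-cell markers measured 7 were higher, with means of 1.28, 0.16 and 0.41 in Prox1-OE pancreas, against 0.05, 0.00 and -0.05 in control pancreas. The B-cell antigen Ms4a1 had the largest difference of this list. It read 7.80, 4.79 and 6.35 in Prox1-OE pancreas, against 4.25, 4.04 and 3.86 in control pancreas. Prox1-OE replicate 1 was thus highest, replicate 3 next and replicate 2 nearest the controls. Ighm, the brightest of the list, read 8.85, 7.13 and 6.81 in Prox1-OE pancreas, against 6.51, 6.24 and 5.72 in control pancreas. There replicate 3 was nearest the controls. Pax5, Cd79a and Blk had a lower mean in Prox1-OE pancreas, by -0.10, -0.07 and -0.01. Of 11 macrophage markers 10 were higher and 6 wholly above, with means of 1.13, 0.44 and 0.48 in Prox1-OE pancreas, against 0.11, 0.04 and -0.15 in control pancreas. The exception, the complement gene C1qa, read 8.23, 8.05 and 8.04 in Prox1-OE pancreas, against 8.51, 8.29 and 7.91 in control pancreas, and so overlapped. No single marker of these lists passed the test.

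Stromal lists were read in the same way. Of 8 markers of lymph node stroma and follicle 7 were higher, with means of 1.05, 0.16 and 0.69 in Prox1-OE pancreas, against -0.06, -0.07 and 0.14 in control pancreas. Glycam1, a product of lymph node venules, read 8.49, 3.26 and 6.83 in Prox1-OE pancreas, against 3.30, 3.49 and 3.72 in control pancreas. It was high on Prox1-OE replicates 1 and 3 and below every control on replicate 2. All 6 lymphatic endothelial markers had a higher mean in Prox1-OE pancreas, but none was wholly above the controls. Prox1 among them differed by only 0.06 ± 0.20 (SE). The list means stood at 0.78, 0.08 and 0.40 in Prox1-OE pancreas, against -0.02, -0.06 and 0.09 in control pancreas. Pdpn belongs to both this list and the lymph node list, so the lists are not separate readings. In the pan-leukocyte, B-cell, macrophage, lymph node and lymphatic lists Prox1-OE replicate 1 was highest. For all but the macrophage list, the mean on replicate 3 was clearly above that on replicate 2. In the lymph node list Glycam1 gave most of this gap. Madcam1, Coch, Clu and Chst4 were also higher on replicate 3, and Il33, Pdpn and Fcna were higher on replicate 2. Single members also ran in the order of Prox1-OE replicate 1, then 3, then 2. With a higher mean in Prox1-OE pancreas these were Ccl5, Cxcl12, Ackr3, Cxcr4, Cxcr5, Ccr7, Cxcl16, Cxcr6, Ccr6, Ccl27a, Cxcl9 and Ccr3. With a lower mean they were Ccl4, Ccl20, Ccr8, Cxcl11, Cxcl14 and Cx3cr1. The share of all genes in this order was not counted. Cxcl13 did not follow this order, and neither did Ccl6, Ccl9, Ccl11, Ccl12, Ccl8 and Ccr1, whose groups did not overlap. The macrophage markers were split. C1qa, C1qb, C1qc, Fcgr3, Cd68 and Mrc1 ran in the order of replicate 1, then 2, then 3. Replicates 2 and 3 were almost equal for C1qa, at 8.05 and 8.04, and for C1qc, at 6.41 and 6.4. Ccl9 and Ccr1 ran in this order, and so did other members such as Ccl11, Ccl22 and Cxcr3. How many of all genes did so was not counted, and a link between these markers and members was not tested. Ctss, Marco, Csf1r and Adgre1 ran in the order of replicate 1, then 3, then 2, and Cd163 was highest on replicate 2. The part of leukocyte and lymph node RNA in the chemokine values was not tested.

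Lists for other cells were also read. Means for T and NK cells stood at 0.53, -0.13 and 0.16 in Prox1-OE pancreas, against -0.07, 0.00 and 0.06 in control pancreas. For fibroblasts they stood at 0.55, 0.08 and 0.17 in Prox1-OE pancreas, against 0.10, -0.19 and 0.08 in control pancreas. Neutrophil, dendritic and blood endothelial lists had ranges of -0.09 to 0.39 in Prox1-OE pancreas, against -0.37 to 0.24 in control pancreas. On Prox1-OE replicates 1, 2 and 3 the dendritic list stood at 0.32, -0.09 and 0.17, and the blood endothelial list at 0.36, 0.00 and 0.17. The T and NK cell, fibroblast, dendritic and blood endothelial lists thus also ran in the order of replicate 1, then 3, then 2. The neutrophil list stood at 0.39, 0.08 and 0.07. Ccl22 is itself among the dendritic markers. As to the labelled tissue, the mean of 7 acinar markers stood at -0.03, -0.08 and -0.04 in Prox1-OE pancreas, against 0.03, -0.01 and -0.02 in control pancreas. All 8 beta-cell markers were lower in mean and 5 were wholly below, where 7.02% of all genes were. Their means stood at -0.52, -0.68 and -0.81 in Prox1-OE pancreas, against 0.27, -0.01 and -0.25 in control pancreas, and none passed the test.

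**Figure D5:**
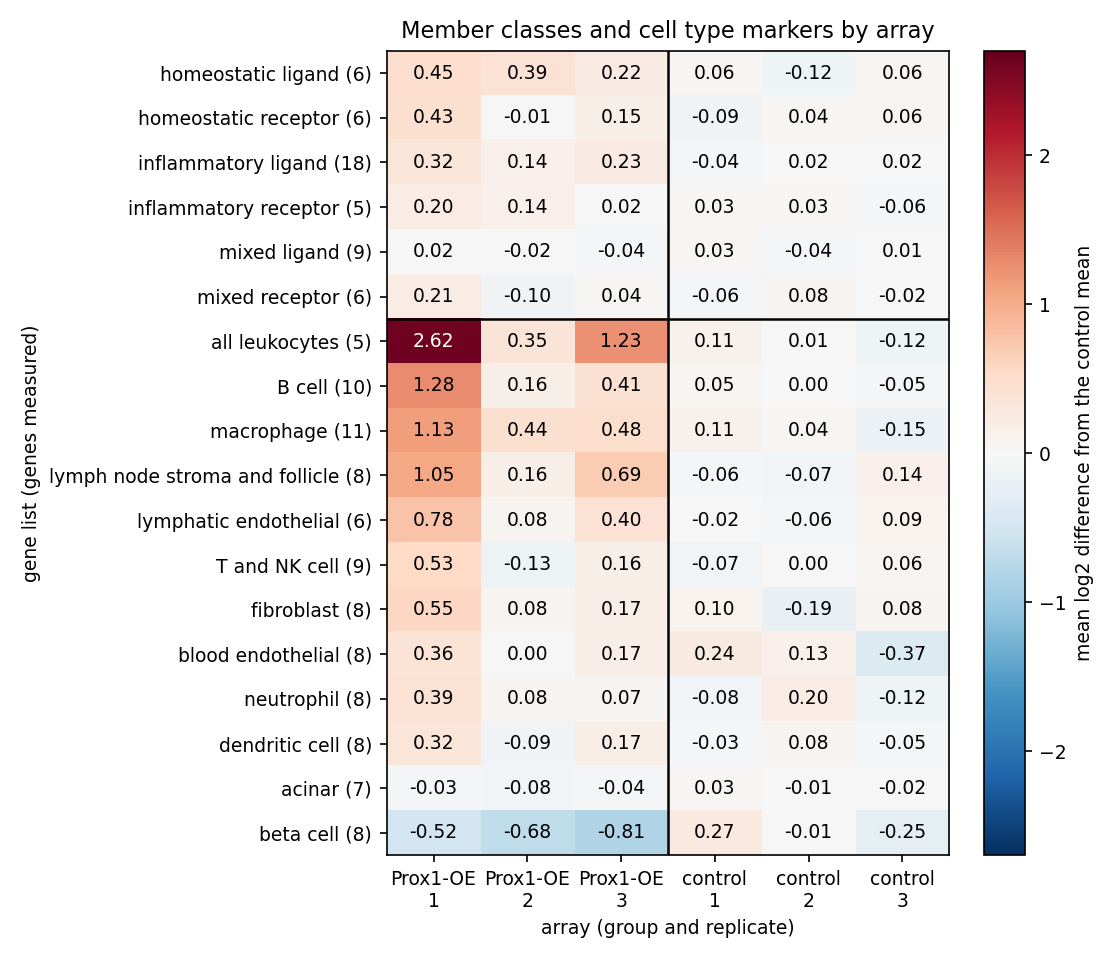
Mean log2 difference from the control mean for the 6 member classes (top) and 12 cell type marker lists (below), by array, with the number of genes measured in brackets. The pan-leukocyte list reaches 2.62 on Prox1-OE replicate 1, 0.35 on replicate 2 and 1.23 on replicate 3, and the mixed ligand class stays between -0.04 and 0.03.

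Other genes of chemokine signalling were followed as 4 lists, and no gene of them passed the test. Of 8 atypical receptors, platelet chemokines and related genes, 6 were higher, with a median of 0.11. Pf4, a platelet chemokine also made by macrophages, read 8.23, 8.03 and 7.97 in Prox1-OE pancreas, against 7.75, 7.63 and 7.83 in control pancreas. It was wholly above the controls, by 0.34 ± 0.10 (SE, adjusted p = 0.690). Ackr4, which scavenges the ligands of Ccr7 and Ccr9, differed by 0.22 ± 0.12 and Dpp4, a protease that trims chemokines, by 0.34 ± 0.18 (SE), and both overlapped.

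Of 24 listed genes that act behind chemokine receptors, 20 were measured. Of these 13 were higher and 7 lower, and the median was 0.07. Wholly above were 4, which is 20%, where 5.05% of all genes were. Rac2, the Rac GTPase of blood cells, read 5.90, 4.94 and 5.31 in Prox1-OE pancreas, against 4.91, 4.47 and 4.28 in control pancreas. Its groups were apart by 0.83 ± 0.25 (SE, adjusted p = 0.690), with Prox1-OE replicate 2 next to control replicate 1. The signal terminators Rgs2 and Rgs1 differed by 0.25 ± 0.10 and 0.19 ± 0.11 (SE, adjusted p = 0.724 and 0.784), Rgs2 without overlap.

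The inducers of homeostatic chemokines, cytokines and factors of the lymphotoxin pathway, had 8 of 11 genes higher and a median of 0.03. Tnfsf11, the RANK ligand, read 4.82, 3.52 and 4.03 in Prox1-OE pancreas, against 3.12, 3.37 and 3.48 in control pancreas, a difference of 0.80 ± 0.29 (SE, adjusted p = 0.702). Ltb, a lymphotoxin subunit of lymphocytes, read 7.04, 5.02 and 5.90 in Prox1-OE pancreas, against 4.99, 5.16 and 5.05 in control pancreas, a difference of 0.92 ± 0.42 (SE, adjusted p = 0.753). Both were highest on Prox1-OE replicate 1, Tnfsf11 was wholly above the controls and Ltb overlapped. Il7r, the interleukin-7 receptor, differed by 0.72 ± 0.43 (SE, adjusted p = 0.784). The inducers of inflammatory chemokines had 10 of 13 measured genes higher, none wholly above and a median of 0.06. The leading genes were the endotoxin receptor Tlr4 at 0.43 ± 0.20, its adaptor Myd88 at 0.36 ± 0.17 and the NF-kB subunit Rela at 0.21 ± 0.12 (SE, adjusted p between 0.763 and 0.781), and all overlapped.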

How the data were processed

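The authors deposited log2 probe set values of 6 arrays, which per the submitters' processing notes were made with RMA and Partek 6.5, with no settings given. RMA corrects background and quantile-normalizes arrays, so a shift of total RNA cannot be seen and differences of dim probe sets are compressed. Total RNA was labelled as biotinylated cRNA, per the labels' protocols. The platform annotation gave 34958 of 45101 probe sets 1 symbol, 932 several and 9211 none, and 64 were controls. Genes were named only from single-symbol probe sets, and all 50 symbols matched RefSeq (GRCm38.p6).

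The fit was limma 3.58.1 in R 4.3.3 (lmFit and eBayes, 4 residual degrees of freedom), Prox1-OE minus control on all 18194 genes with no covariate, Benjamini-Hochberg adjusted, and was tested on simulated data. Named were the main ligand and receptor pairs, up to 5 further members of each class by smallest p, every member whose groups do not overlap, the 3 brightest, and up to 3 genes of each pathway list by smallest p. Of those pairs, Ccl19 and Ccl21 had no probe set with a single symbol and so have no values. Markers were named from the 2 brightest of a list. Exceptions were Glycam1, chosen after its values were seen, and the macrophage and lymph node lists, whose order over the arrays was later given in full. The members that ran in the order of Prox1-OE replicate 1, then 3, then 2 were also later given in full. Lists could hold more genes than were measured. Members and lists were chosen with earlier results of these data known. Alternatives covered probe set choice, dim genes, normalization, moderation, array weights, the replicate number and each array left out. The labels give no batch.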

Additional observations from a re-analysis of the deposited data

Results flagged for a closer look

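A signal appeared in probe sets that stand for no single gene. Of 4 probe sets with several symbols that include a chemokine ligand, 2 read over 1 log2 unit higher on the brightest Prox1-OE array than on any control array. The one with 9 symbols read 8.08, 4.71 and 6.80 in Prox1-OE pancreas, against 4.90, 4.97 and 5.36 in control pancreas. Its difference was 1.45 ± 0.68 (SE, limma adjusted p = 0.806 over all probe sets). The one with 10 symbols read 7.69, 4.85 and 6.68 in Prox1-OE pancreas, against 5.39, 5.29 and 5.10 in control pancreas. Its difference was 1.15 ± 0.57 (SE, limma adjusted p = 0.809). On both, Prox1-OE replicates 1 and 3 were above all controls and Prox1-OE replicate 2 below all of them. The other 2 probe sets differed by -0.08 and -0.14. No gene is named from these probe sets.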

How the results depend on the processing

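No member passed the adjusted threshold under any of the 15 alternatives, and the lowest adjusted p of a named member was 0.273. At an unadjusted p under 0.05 in the main fit, 10 members were higher, with 2.94% of all genes, and 4 lower, with 3.7%. Of 39 named members, 25 kept their sign throughout. When all probe sets of a gene were averaged, Ccr9 was 0.09 and Ccl28 -0.09, and with specific probe sets Cxcl1 was 0.28. Ccl7 was 0.02 after a second quantile normalization, 0.01 after median centring and 0.02 with array weights, under which Ccr2 and Ccr3 were 0.00. Without dim genes the median differences were 0.60 (homeostatic, 4 genes) and 0.50 (inflammatory, 5 genes). Only 1 mixed gene was left, Cxcl16, at 0.27, so that value is no class median. With single arrays left out, the count of all genes that passed ran from 0 to 4, and the median from 0.16 to 0.32 (homeostatic) and from -0.04 to 0.04 (mixed). Single genes ran from -0.09 to 0.45 (Cxcr5), -0.07 to 0.28 (Ccl28), -0.05 to 0.09 (Ccr3), -0.04 to 0.29 (Ccr6), -0.12 to 0.02 (Cxcl14), -0.07 to 0.13 (Ccr2), -0.07 to 0.04 (Ccr8), -0.07 to 0.15 (Ccr10), -0.12 to 0.06 (Xcr1), -0.02 to 0.14 (Ccl2), -0.15 to 0.06 (Ccl4) and -0.07 to 0.09 (Ccl7). Without changing sign, Ccl1 ran from 0.03 to 0.12, Ccl3 from 0.06 to 0.19 and Ccr4 from 0.04 to 0.10. With the replicate block 2 genes passed, none a member. Same-numbered arrays had deviations that correlated at 0.04, 0.14 and 0.11, and each array correlated best with its own number, so the pairing is a hint from the data and not the design. Counts without single arrays and the alternatives for the 6 members named later were added after seeing the data. For these changes the cause was not tested. RMA compresses the differences of members with a dim signal.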
